A study of Mus musculus with 6 samples.

Results

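The carriers described here are the genes whose symbol on the array platform begins with Slc25a, the main family of transporters of the mitochondrial inner membrane, with the uncoupling proteins that bear Ucp names left out. There were 44 such genes with a probe set named for 1 gene, of 18193 genes in the whole table, and together they had 93 probe sets. A gene took the values of its brightest probe set, judged by the mean of the log2 values over the 6 arrays. Of the 44 carriers, 40 lay above the limit for dim genes, the 40th percentile of all probe sets (an intensity of 163.6), and were tested, as were 13658 genes in all. Slc25a20, the marker gene given for the group, was among them, with an intensity of 3745 ± 182 (SD, n = 2) in wild-type cells.

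The cells were mouse brown preadipocytes, immortalised with SV40 large T antigen and differentiated for 7 days into brown adipocytes, the heat-producing fat cells. The groups were wild type (passage number 4, with no siRNA named, from a mouse of mixed background by the label of array 2), PGC-1alpha -/- cells expressing a control siRNA (knockout-control), and PGC-1alpha -/- cells expressing an siRNA for PGC-1beta knockdown (knockdown), with n = 2 arrays each, which the series design names biological replicates. The labels do not say how many lines or clones stand behind each group. The genotype, the line and the siRNA vector cannot be told apart in any comparison with wild type, and each siRNA was the only one of its kind.

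Mitochondrial carriers are small membrane proteins built of similar repeats that move nucleotides, phosphate, organic acids, amino acids, cofactors and ions across the inner membrane. In brown fat they feed the respiratory chain with acylcarnitines and reducing equivalents, and they exchange ADP for ATP. PGC-1alpha and PGC-1beta are coactivators without DNA binding of their own that raise the transcription of mitochondrial genes through partners such as the estrogen-related receptors, the PPARs and NRF-1.

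The promoters below are those of 3 carriers whose values stood in falling order from wild type through knockout-control to knockdown (Slc25a20, Slc25a4, Slc25a11) and of 2 in rising order (Slc25a33 and, by 3 of its 5 probe sets, Slc25a30), although most single steps were not called; they are shown so that the letters upstream of genes whose groups stood in opposite orders can be compared. They are RefSeq sequences of build GRCm38.p6, 250 bases before to 50 after the gene start, written 5′ to 3′ on the gene's strand. Capitals mark the GC box GGGCGG, a site of the Sp1 family, or its reverse CCGCCC, the only searched motif that these 5 windows hold.
Slc25a20, chr9:108661886-108662185, plus strand: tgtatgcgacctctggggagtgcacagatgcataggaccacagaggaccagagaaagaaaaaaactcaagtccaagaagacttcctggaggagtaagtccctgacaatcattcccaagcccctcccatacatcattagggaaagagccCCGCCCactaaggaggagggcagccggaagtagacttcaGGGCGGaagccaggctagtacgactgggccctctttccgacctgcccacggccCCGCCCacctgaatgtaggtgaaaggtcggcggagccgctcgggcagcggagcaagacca
Slc25a4, chr8:46211013-46211312, minus strand: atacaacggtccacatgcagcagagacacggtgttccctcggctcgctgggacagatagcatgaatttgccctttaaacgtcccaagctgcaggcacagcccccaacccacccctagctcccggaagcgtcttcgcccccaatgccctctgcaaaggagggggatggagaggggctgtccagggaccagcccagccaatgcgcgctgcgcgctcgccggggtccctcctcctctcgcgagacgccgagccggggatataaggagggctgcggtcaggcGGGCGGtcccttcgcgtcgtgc
Slc25a11, chr11:70646990-70647289, minus strand: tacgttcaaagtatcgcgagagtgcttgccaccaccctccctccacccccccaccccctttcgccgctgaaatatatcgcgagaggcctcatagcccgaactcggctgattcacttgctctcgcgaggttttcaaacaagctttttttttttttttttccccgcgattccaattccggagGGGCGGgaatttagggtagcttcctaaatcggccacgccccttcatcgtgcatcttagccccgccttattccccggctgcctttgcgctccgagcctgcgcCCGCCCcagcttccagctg
Slc25a33, chr4:149774218-149774517, minus strand: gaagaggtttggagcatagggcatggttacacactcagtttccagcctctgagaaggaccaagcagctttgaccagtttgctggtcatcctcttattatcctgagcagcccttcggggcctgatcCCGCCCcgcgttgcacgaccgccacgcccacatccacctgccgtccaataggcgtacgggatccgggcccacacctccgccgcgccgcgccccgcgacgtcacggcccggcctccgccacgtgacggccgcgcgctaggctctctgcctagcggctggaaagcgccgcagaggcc
Slc25a30, chr14:75786988-75787287, minus strand: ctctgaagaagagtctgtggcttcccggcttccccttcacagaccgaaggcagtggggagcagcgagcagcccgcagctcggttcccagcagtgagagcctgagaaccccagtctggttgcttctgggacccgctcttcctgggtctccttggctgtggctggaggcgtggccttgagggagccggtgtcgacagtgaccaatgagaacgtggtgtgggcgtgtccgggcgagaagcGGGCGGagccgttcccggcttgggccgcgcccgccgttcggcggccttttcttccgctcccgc

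Each of these 5 windows held at least 1 GC box, Slc25a20 having 3 and Slc25a11 having 2. Slc25a23 and Slc25a35, also in falling order, and Slc25a1, also in rising order, were not among the windows shown. Entries were found for 34 of the 44 carriers, with 43 promoters, and 37 of these (86.0%) held the GC box on either strand, against 35.7% of all 32851 promoters of the same length. The core letters AGGTCA, read by PPARs, estrogen-related receptors and other nuclear receptors, stood on either strand in 4 of the 43 (9.3%), those of Slc25a34, Slc25a39, Slc25a45 and Slc25a47, against 16.3% of all promoters. The longer AAGGTCA, which contains AGGTCA, stood in that of Slc25a34 only (2.33%, against 4.72% of all promoters), and the NRF-1 core CGCATGCG in none of the 43 (1.87% of all promoters). The median GC content was 59.7% in the carrier promoters and 52.7% in all promoters. A match is a string of letters and not a binding site, and sites farther away were not searched.

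The arrays had median intensities of 220.9 to 242.7, the lowest on knockdown array 2. Ppargc1a, the deleted gene, stood at 1338 and 1319 on the wild-type arrays, at 767 and 830.4 in knockout-control and at 1146 and 648 in knockdown cells, and was not called lower in the first comparison (-0.71 ± 0.24, limma adjusted p = 0.125). Whether its probes lie in the deleted part is not given, so they do not check the genotype. Ppargc1b, the target of the siRNA, stood at 2849.5 and 3162 in wild type, 1862 and 2302 in knockout-control and 534 and 224 in the knockdown group. Its fall between knockout-control and knockdown cells was 5.53-fold, or -2.47 ± 0.32 (SE) on the log2 scale, with a limma adjusted p = 0.022. However, without knockout-control array 1 or 2 the fall did not pass (highest limma adjusted p = 0.146). The Y-linked gene Eif2s3y read 872 and 961 in wild-type cells, 6.25 in knockout-control array 2 and 5.13 in knockdown array 2, with the other arrays missing, so a sex-linked difference separates the lines too. Of the brown adipocyte markers, 4 of 9 tested were called lower in knockdown than in knockout-control cells (0.564% of all genes). In knockout-control against wild type 1 of 9 was called higher and 0 lower (2.55% and 3.50% of all genes). In knockdown against wild type 1 of 9 was called higher and 4 lower (546 and 819 of all 13644 genes). The preadipocyte and fibroblast markers, 6 of 7 with a probe set, summed to 5714 and 4876 in wild type, 3635 and 4312 in knockout-control and 7338 and 6098 in the knockdown group. Of the 5 of these markers tested, 2 had a log2 fold change above 0 and 3 below between knockout-control and wild type (all genes 6828 and 6824 of 13652). Col1a1 was called lower there (-0.76, limma adjusted p = 0.0285). Between knockdown and knockout-control 4 stood above 0 and 1 below (all genes 6681 and 6968 of 13649), and Dlk1 was called 3.53-fold higher (limma adjusted p = 0.00696). In knockdown against wild type 2 of these 5 markers were called higher and 1 lower. None of the tested skeletal muscle (3 of 7 listed), macrophage (5 of 6) or endothelial (2 of 4) markers was called in limma in any comparison, and 0 of them had an unadjusted p under 0.05. In such bulk RNA, fewer cells of a type and less RNA per cell cannot be told apart, and the part of these differences in the carrier values was not tested.

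The carriers moved in both directions, with few of them called. Between knockout-control and wild-type cells, 1 of 40 tested carriers rose (Slc25a32) and 3 fell (Slc25a12, Slc25a20 and Slc25a35), or 10.0% of the carriers, with 6.05% of all 13652 genes called (2.55% higher and 3.50% lower). Between knockdown and knockout-control cells 0 of 39 were called, with 0.835% of all genes called in limma (0.271% higher and 0.564% lower) and 5 of 39 carriers at an unadjusted p under 0.05, as were 1930 of 13649 genes. Between knockdown and wild-type cells 3 of 39 rose (Slc25a33, Slc25a10 and Slc25a32) and 5 fell (Slc25a20, Slc25a4, Slc25a11, Slc25a12 and Slc25a35), or 20.5%, with 10.0% of all 13644 genes called, 546 of them higher and 819 lower. A call here means a p under 0.05 after Benjamini-Hochberg adjustment over all genes in a limma model of log2(intensity + 32), and every fold change is on that scale, which understates changes of dim genes.

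The middle of the family lay near 0 in each comparison. The median log2 fold change over the tested carriers was 0.00 between knockout-control and wild type, where all genes had a median of 0.00. It was -0.07 between knockdown and knockout-control (all genes -0.01) and -0.08 between knockdown and wild type (all genes -0.03). The pooled SD between replicate arrays of the carriers' median log2 value was 0.07, close to the size of the last 2 medians. Scaling moved the carriers together with all genes. With each array scaled to the same median, the median between knockdown and knockout-control was 0.01 for the carriers and 0.07 for all genes. After quantile normalization, that between knockdown and wild type was 0.00 for the carriers and 0.04 for all genes. The carriers' median thus stayed below that of all genes under these scalings, while its sign did not hold. The choice of probe set did change this order between knockdown and wild type. There the carriers' median was 0.0228 with the mean of probe sets (all genes -0.03) and 0.0365 with the second brightest probe set (all genes -0.02).

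**Figure D1:**
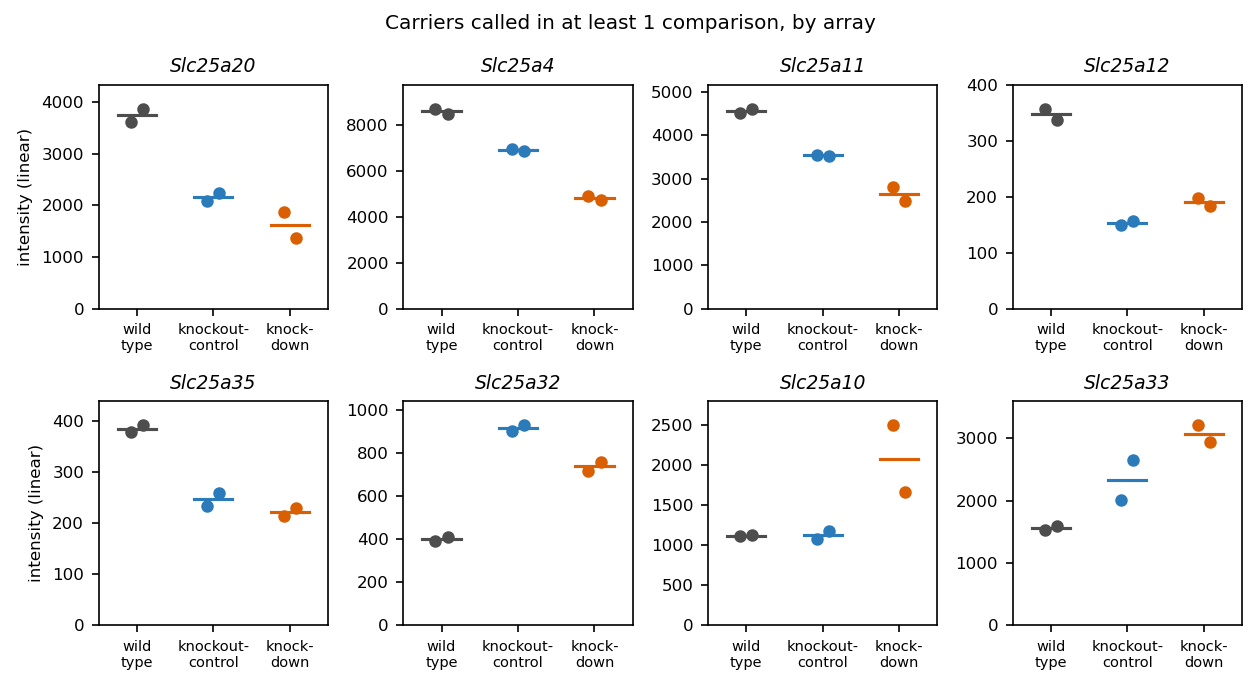
Intensity (linear axis from 0) on each array for the 8 carriers called in at least 1 comparison; points are arrays, horizontal lines the mean of 2 arrays. Slc25a20, Slc25a4, Slc25a11 and Slc25a35 stand highest in wild type and lowest in the knockdown group with no overlap, Slc25a33 stands in the opposite order, and the step from knockout-control to knockdown was not called for any of the 8.

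In 5 of 40 carriers (12.5%) every wild-type array lay above every knockout-control array and every knockout-control array above every knockdown array, an order that 4.48% of all genes showed. They were Slc25a20, Slc25a4, Slc25a11, Slc25a35 and Slc25a23. The opposite order held for Slc25a33 and Slc25a1, 2 of 39 carriers (5.13%), against 3.44% of all genes. Between knockdown and knockout-control alone, 11 of 39 carriers were lower without overlap (21.4% of all genes) and 5 were higher (17.1% of all genes).

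The carnitine carrier was the member with the largest fall between wild type and knockdown. Slc25a20 exchanges acylcarnitines for free carnitine and so brings fatty acids into the matrix for oxidation. Wild-type cells gave intensities of 3616 and 3874, knockout-control cells 2081 and 2231, and knockdown cells 1878 and 1361. No array of a group overlapped with those of the next, and the knockdown arrays differed most from each other. The fall from wild type was 1.73-fold in knockout-control cells (-0.79 ± 0.18, limma adjusted p = 0.0379) and 2.31-fold in knockdown cells (-1.21 ± 0.18, limma adjusted p = 0.0054). The step between them did not pass (-0.42 ± 0.18, limma adjusted p = 0.33). Its other probe set gave the same pattern, at 2014 and 2171, then 989.6 and 1138, then 975 and 749. The call against knockdown cells held without each array in turn, at log2 fold changes from -1.44 to -0.98 (highest limma adjusted p = 0.0435). The call against knockout-control cells was lost without any 1 of the 4 arrays compared, with no filter and with the replicate block.

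The enzymes that work with this carrier did not all follow it. Cpt2, the matrix palmitoyltransferase that takes over the imported acylcarnitines, had wild-type, knockout-control and knockdown intensities of 3379.7 ± 64.6, 2670.5 ± 175 and 1949 ± 198 (SD, n = 2 each). It fell 1.73-fold between wild type and knockdown (-0.79 ± 0.15, limma adjusted p = 0.014), with no call in the single steps, and did not pass without wild-type array 1 or 2 (highest limma adjusted p = 0.141). Cpt1a, an outer-membrane palmitoyltransferase, was not called and stood at 632 ± 45.5, 424 ± 46.1 and 698 ± 114 in the same order. Cpt1b, another form of that enzyme, had no probe set named for 1 gene and was not measured here. Crat, which makes short-chain acylcarnitines, was called higher in knockdown than in wild type (0.55 ± 0.13, limma adjusted p = 0.0373), but its second probe set stood at -0.07 and the call was lost in 8 other settings.

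**Figure D2:**
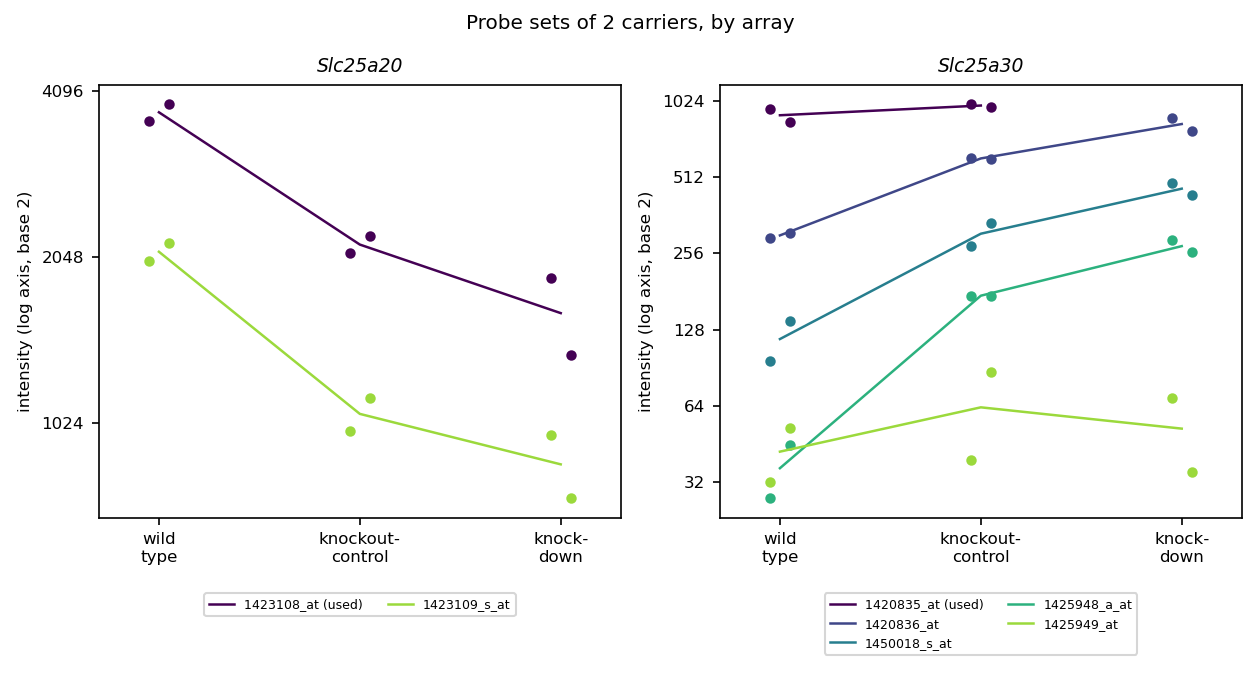
Intensity (log axis, base 2) on each array for every probe set of Slc25a20 and Slc25a30; points are arrays, lines join group means, and the probe set used for the gene is marked. Both probe sets of Slc25a20 fall from wild type to knockdown. For Slc25a30 the probe set used has no value on the knockdown arrays and is level before, while 3 of the 4 others rise.

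The ADP/ATP and phosphate carriers supply the ATP synthase. Of the 6 tested members of this role group 1 fell between knockdown and wild type (Slc25a4) and 5 did not pass. Of all genes, 819 of 13644 were called lower there. Slc25a4 encodes ANT1, the ADP/ATP carrier of heart and muscle, and Slc25a5 encodes ANT2, the form of dividing cells and many tissues. Slc25a4 stood at 8698 and 8462 in wild type, 6923 and 6835 in knockout-control and 4889 and 4709 in the knockdown group. The 3 groups were apart, and the arrays within each differed little. Slc25a4 fell 1.78-fold between wild type and knockdown (-0.83 ± 0.13, limma adjusted p = 0.00822), while the single steps did not pass (-0.32 and -0.52, limma adjusted p = 0.225 and 0.131). The call did not hold once wild-type array 1 or 2 was removed (highest limma adjusted p = 0.101). With trend and robust moderation both single steps passed (limma adjusted p = 0.0394 and 0.0101). The 2 other probe sets of Slc25a4 above the filter gave -1.11 and -0.90 between knockdown and wild type, and both passed in a limma model of all 27018 probe sets above the filter (adjusted p = 0.00625 and 0.0478).

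Slc25a5 was not called. It stood at 8681 and 8851 in wild type, 9202 and 8262 in knockout-control and 6968 and 7834 in the knockdown group. Wild type and knockout-control overlapped, and both knockdown arrays were lower than either. Its change between knockdown and wild type was -0.25 ± 0.15 (limma adjusted p = 0.338), and all 8 of its probe sets pointed down, from -0.80 to -0.24, with none passing. The probe set closest to passing had -0.51 (adjusted p = 0.0655). The difference between the 2 ADP/ATP carriers was itself not tested. They are close copies, and the probe sets used for both carry the x_at suffix that the array's naming gives to sets with probes shared between transcripts. Slc25a5 lies on the X chromosome, and the part of the sex-linked difference between the lines was not tested.

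**Figure D3:**
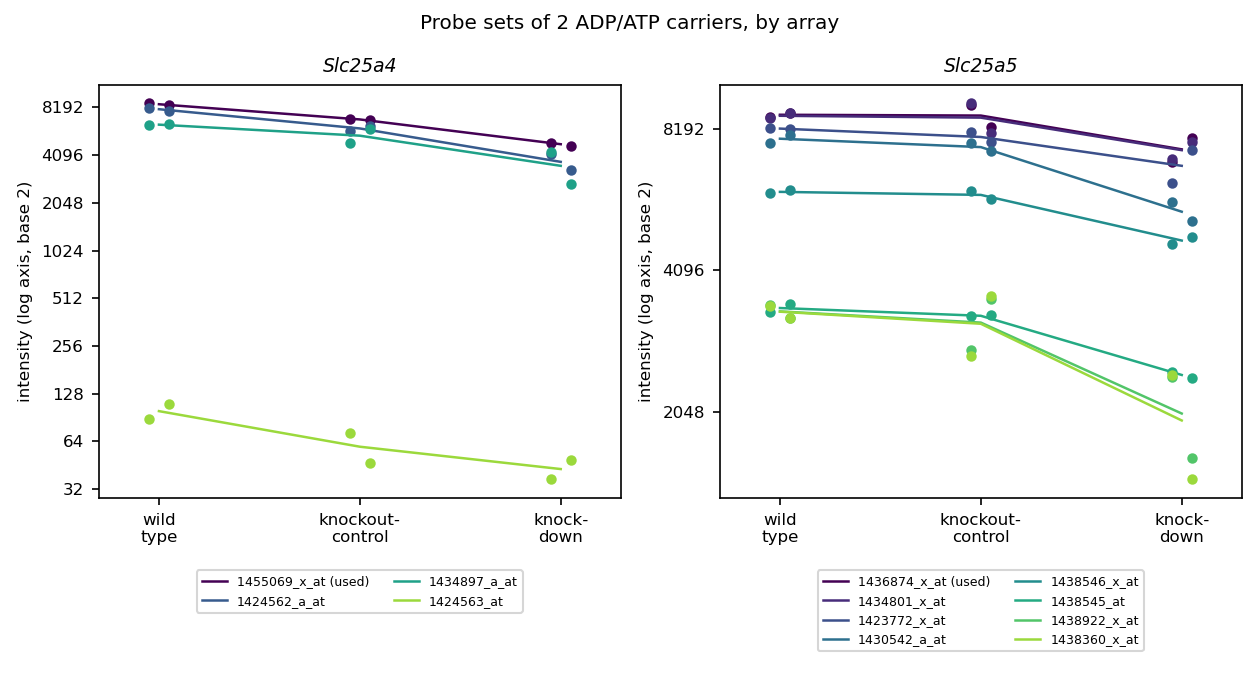
Intensity (log axis, base 2) on each array for every probe set of the ADP/ATP carriers Slc25a4 and Slc25a5; points are arrays and lines join group means. The 3 bright probe sets of Slc25a4 fall in each step, and the 8 of Slc25a5 are near level from wild type to knockout-control and lower in the knockdown group.

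Slc25a3, the phosphate carrier, stood at 9856 and 10214 in wild type, 10173 and 9679 in knockout-control and 8602 and 7605 in the knockdown group. Only the knockdown arrays stood apart, and no change was called (knockdown minus wild type -0.31 ± 0.14, limma adjusted p = 0.215), except with trend and robust moderation (limma adjusted p = 0.0289). Among the ATP-Mg/phosphate carriers, which shift the size of the matrix adenine nucleotide pool, the values went apart. Slc25a23 stood at 1028 and 969, then 801 and 760.1, then 702 and 676, and missed the call between knockdown and wild type (-0.51 ± 0.14, limma adjusted p = 0.0506). It was called there with a pseudocount of 64, the filter at the 60th percentile, trend and robust moderation, the crossed replicate block and without knockdown array 1. Slc25a24 stood at 568 and 676 in wild type, 371 and 451 in knockout-control and 542 and 376 in the knockdown group, with both later groups below wild type and no call (knockout-control minus wild type -0.56 ± 0.20, limma adjusted p = 0.15). Slc25a25 stood at 755 and 803, then 1095 and 963, then 1002 and 1033, above wild type in both knockout groups without a call (0.39 ± 0.14, limma adjusted p = 0.167), and its 2 other probe sets stood at 0.07 and -0.08. Among partners of this group, Ppif, the cyclophilin of the permeability pore, and Vdac2, an outer membrane porin, were called lower in knockdown than in wild type (2.31-fold and 1.73-fold, limma adjusted p = 0.0054 and 0.0131). The call of Ppif held without each array in turn, and that of Vdac2 was lost without wild-type array 1 or 2 (highest limma adjusted p = 0.141).

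The malate-aspartate shuttle, which carries cytosolic reducing equivalents into the matrix, uses the oxoglutarate/malate carrier Slc25a11 and an aspartate/glutamate carrier. Slc25a11 stood at 4514 and 4623 in wild type, 3544 and 3533 in knockout-control and 2809.6 and 2486 in the knockdown group. The groups were apart and in falling order, with 1.72-fold between the ends (-0.78 ± 0.14, limma adjusted p = 0.0124) and no call in the single steps (-0.37 and -0.42, limma adjusted p = 0.182 and 0.235). Without wild-type array 1 or 2 the call was lost (highest limma adjusted p = 0.135). Slc25a12, the aspartate/glutamate carrier aralar, stood at 357 and 337 in wild type, 149 and 157 in knockout-control and 197 and 184 in the knockdown group. Wild type was apart above the other groups, and the knockdown arrays lay above the knockout-control arrays. Slc25a12 fell 2.05-fold in knockout-control cells (-1.03 ± 0.14, limma adjusted p = 0.00417) and stood 1.71-fold below wild type in knockdown cells (-0.77 ± 0.14, limma adjusted p = 0.0121). The first call was lost without wild-type array 1 (limma adjusted p = 0.0626), the second without either wild-type array (highest limma adjusted p = 0.144). Its level in knockout-control cells was under the intensity of the filter, and its 2 dimmer probe sets, both below the filter, showed no such fall (0.03 and -0.25). Slc25a13, citrin, the other aspartate/glutamate carrier, was too dim to be tested, at 108 to 183 over the 6 arrays.

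Of the enzymes of that shuttle, Got2, the mitochondrial aspartate aminotransferase, fell as aralar did. It stood at 3779 and 4211 in wild type, 1343 and 1565 in knockout-control and 1866 and 1739 in the knockdown group, a fall of 2.71-fold in knockout-control cells (-1.44 ± 0.15, limma adjusted p = 0.00132) and of 2.19-fold in knockdown cells (-1.13 ± 0.15, limma adjusted p = 0.00377). Both calls held without each array in turn, and the first was lost with the mean of the gene's probe sets. Got1, the cytosolic form, and Mdh2, the mitochondrial malate dehydrogenase, were called lower in knockdown than in wild type only (-0.68 and -0.53, limma adjusted p = 0.0416 and 0.0495), and each call held in 1 of the 6 fits without an array. Mdh1, the cytosolic malate dehydrogenase, had no value on knockdown array 2 and was not called.

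Of the 3 tested organic acid carriers, Slc25a11 fell and Slc25a10 rose between knockdown and wild type (10.0% of all genes called). Slc25a1 exports citrate for fatty acid synthesis and stood at 6348 and 6321 in wild type, 7356 and 6652 in knockout-control and 7370.4 and 7769 in the knockdown group, in rising order without a call (knockdown minus wild type 0.26 ± 0.14, limma adjusted p = 0.3). Acly, which splits the exported citrate, rose 1.94-fold in knockout-control cells (0.96 ± 0.15, limma adjusted p = 0.01), a call lost without any 1 of the 4 arrays compared (highest limma adjusted p = 0.121), and in knockdown cells it stood at 0.56 against wild type without a call. Slc25a10, the dicarboxylate carrier, which exchanges malate and succinate for phosphate, stood at 1111 and 1127 in wild type, 1074 and 1172 in knockout-control and 2501 and 1661 in the knockdown group. Both knockdown arrays stood above all others, by unequal amounts. It was the carrier with the highest rise in the knockdown step (1.79-fold, 0.84 ± 0.20), which did not pass (limma adjusted p = 0.095), and it was called against wild type (1.8-fold, limma adjusted p = 0.032). Its second probe set gave 857 and 712, then 762 and 749.9, then 1899 and 1464, and passed in the knockdown step in the model of all probe sets (2.16-fold, 1.11 ± 0.18, adjusted p = 0.0493). Leaving out any single array of wild type or knockout-control ended the call against wild type. That call was also lost with no filter, with only the 2 groups compared and with the replicate block.

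Of the 8 tested amino acid carriers, 1 fell between knockout-control and wild type (Slc25a12) and 7 did not pass (3.50% of all genes called lower). Slc25a44 brings branched-chain amino acids into mitochondria and is known for its part in their clearance by brown fat. It stood at 1023 and 1165 in wild type, 1331 and 1456 in knockout-control and 1433 and 1217 in the knockdown group. The wild-type arrays were the lowest, without a call (0.34 ± 0.15 in knockout-control, limma adjusted p = 0.253), and its 2 other probe sets pointed the same way in this comparison (0.39 and 0.32). Bcat2, the mitochondrial aminotransferase of these amino acids, was higher in knockdown than in wild type (0.85 ± 0.18, 1.8-fold, limma adjusted p = 0.0222), a call lost without wild-type array 2 (limma adjusted p = 0.222). Glud1, glutamate dehydrogenase, rose 1.9-fold in knockout-control cells (limma adjusted p = 0.0104), a call lost without wild-type array 1 or 2 or knockout-control array 1 (highest limma adjusted p = 0.106), while the glutamate carriers Slc25a22 and Slc25a18 had log2 fold changes of 0.08 and 0.22 and were not called. Slc25a29, a carrier of basic amino acids, stood at 432 and 627 in wild type, 521 and 564 in knockout-control and 369 and 471 in the knockdown group. Its difference of -0.35 ± 0.20 in the knockdown step did not pass, and of its 4 other probe sets 3 had a value above 0. Slc25a15, an ornithine carrier, and Slc25a38, the glycine carrier of heme synthesis, lay between -0.12 and 0.02 in all 3 comparisons.

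Of the 8 tested cofactor and nucleotide carriers, 1 rose between knockout-control and wild type (2.55% of all genes higher and 3.50% lower). Between knockdown and wild type 2 rose (546 of all 13644 genes higher and 819 lower). In both comparisons 0 fell, but at these shares 8 carriers are too few to read that as a result. Slc25a32, which brings folate and FAD into mitochondria, stood at 388 and 409.5 in wild type, 899 and 929 in knockout-control and 717 and 756 in the knockdown group. The knockout groups were apart above wild type, and the knockdown arrays stood between the others. It rose 2.2-fold in knockout-control cells (1.13 ± 0.14, limma adjusted p = 0.0026), a call that held without each array in turn, and stood 1.78-fold above wild type in knockdown cells (0.84 ± 0.14, limma adjusted p = 0.00862). That second call did not hold once wild-type array 1 or 2 was removed (highest limma adjusted p = 0.108), and with the second brightest probe set (0.54, limma adjusted p = 0.26), which did rise in knockout-control cells (1.17 ± 0.28, adjusted p = 0.0494 in the model of all probe sets).

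Slc25a33 carries pyrimidine nucleotides, the building blocks of mitochondrial DNA and RNA. It stood at 1532 and 1598 in wild type, 2015 and 2651 in knockout-control and 3215 and 2941 in the knockdown group. The groups were apart in rising order, with 1.95-fold between the ends (0.96 ± 0.17, limma adjusted p = 0.0111) and no call in the single steps (0.55 and 0.41, limma adjusted p = 0.0968 and 0.323). The call did not hold once wild-type array 1 or 2 was removed (highest limma adjusted p = 0.0913). Slc25a36, the other pyrimidine nucleotide carrier, was not called and had -0.26 ± 0.22 between the same groups, while its other probe sets both pointed up, at 0.21 and 0.21. Slc25a26, the S-adenosylmethionine carrier, stood at 417 and 341 in wild type, 529 and 545 in knockout-control and 586 and 455 in the knockdown group, all 4 knockout arrays above wild type without a call (0.48 ± 0.17 in knockout-control, limma adjusted p = 0.154). Slc25a42, a coenzyme A carrier, stood between 959 and 1033 on the 6 arrays. Slc25a51, the NAD carrier, stood at 3412 and 3558, then 3231 and 3613, then 3346 and 2566, and neither carrier was called.

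Slc25a30 shows how a missing value, or probe sets that disagree, can hide a member. It encodes KMCP1, a relative of the uncoupling proteins. Its brightest probe set stood at 950.3 and 841 in wild type and 990.5 and 967 in knockout-control, and both of its knockdown cells were empty, so by the rule used here it gave 1 comparison, with no call (0.13 ± 0.15, limma adjusted p = 0.708). The next probe set stood at 295 and 307 in wild type, 606 and 605 in knockout-control and 877 and 777 in the knockdown group. A further probe set stood at 96.3 and 139, then 273 and 338, then 485 and 436, and another, dimmer one at 27.8 and 45.1, then 174 and 174, then 288 and 259. In these 3 the groups were apart in rising order. The first of them rose 1.91-fold in knockout-control cells and 2.57-fold in knockdown cells against wild type (limma adjusted p = 0.0099 and 0.00164 in the model of all probe sets). The second rose 2.27-fold and 3.32-fold (adjusted p = 0.0109 and 0.00175), and neither passed in the knockdown step alone (adjusted p = 0.264 and 0.267). Both wild-type values of the second were under the intensity of the filter, which it passed through the other groups, so its folds stand over a dim group. These probe sets were looked at after the empty cells were seen. Slc25a30 became the 5th carrier called between knockout-control and wild type, and the 9th between knockdown and wild type, when each gene took its brightest probe set with a value on every array. Between knockout-control and wild type no value of the brightest probe set was missing. That 5th call came from the change of probe set (0.94 against 0.13). The fifth probe set of the gene, at 32.2 to 87.4, showed no order.

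Of the 7 tested carriers with no transported compound given here, Slc25a35 fell in both comparisons with wild type and 6 did not pass. Of all genes, 3.50% were called lower in knockout-control and 819 of 13644 in knockdown cells. Slc25a35, whose transported compound is not settled, stood at 378 and 393 in wild type, 235 and 259 in knockout-control and 214 and 229.8 in the knockdown group. Slc25a35 fell 1.5-fold in knockout-control cells (-0.58 ± 0.14, limma adjusted p = 0.047) and 1.64-fold in knockdown cells (-0.72 ± 0.14, limma adjusted p = 0.0164). The first call held in 9 of 18 alternative settings and was lost without any 1 of the 4 arrays compared. It was also lost with no filter, the mean of probe sets, the second brightest probe set, trend and robust moderation, and the replicate block. The second call was lost with no filter and without wild-type array 1 or 2. Slc25a45 stood at 458 and 522 in wild type, 726 and 618 in knockout-control and 484 and 630.2 in the knockdown group, a difference of 0.43 ± 0.17 in knockout-control that was not called. None of the 4 iron and glutathione carriers was called in limma (0 with an unadjusted p under 0.05). With 6.05%, 0.835% and 10.0% of all genes called in the 3 comparisons, 0 of 4 says little. The log2 fold changes of these 4 lay between -0.20 and 0.17 in the 3 comparisons. Among them, Slc25a39, the glutathione carrier, stood at 8770.1 and 9049, then 8889 and 8218, then 7823 and 7627, lowest on the knockdown arrays. Slc25a37, mitoferrin 1, which imports iron for heme, stood between 204 and 238 on the 6 arrays, while Alas1, the first enzyme of heme synthesis, was called lower in knockdown than in wild type (1.78-fold, limma adjusted p = 0.014; lost without wild-type array 1 or 2). The uncoupling-protein-like Slc25a14 and Slc25a27 lay between -0.16 and 0.06, whereas Ucp1 itself fell 24.9-fold in the knockdown step (limma adjusted p = 3.44e-05). There were 4 members too dim to test. Beside Slc25a13 these were Slc25a31, the germ-cell ADP/ATP carrier, Slc25a41 and Slc25a54, and the highest single value of these 3 was 109. The 10 carriers not given singly, Slc25a2, Slc25a16, Slc25a17, Slc25a28, Slc25a34, Slc25a40, Slc25a46, Slc25a47, Slc25a48 and Slc25a53, were tested without a call. By the probe sets used, their log2 fold changes lay between -0.21 and 0.17 in the 3 comparisons. Other probe sets above the filter went beyond this range. One of Slc25a46 had -0.44 in the knockdown step, and one of Slc25a48 had 0.30 in knockout-control against wild type and -0.35 in the knockdown step.

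**Figure D4:**
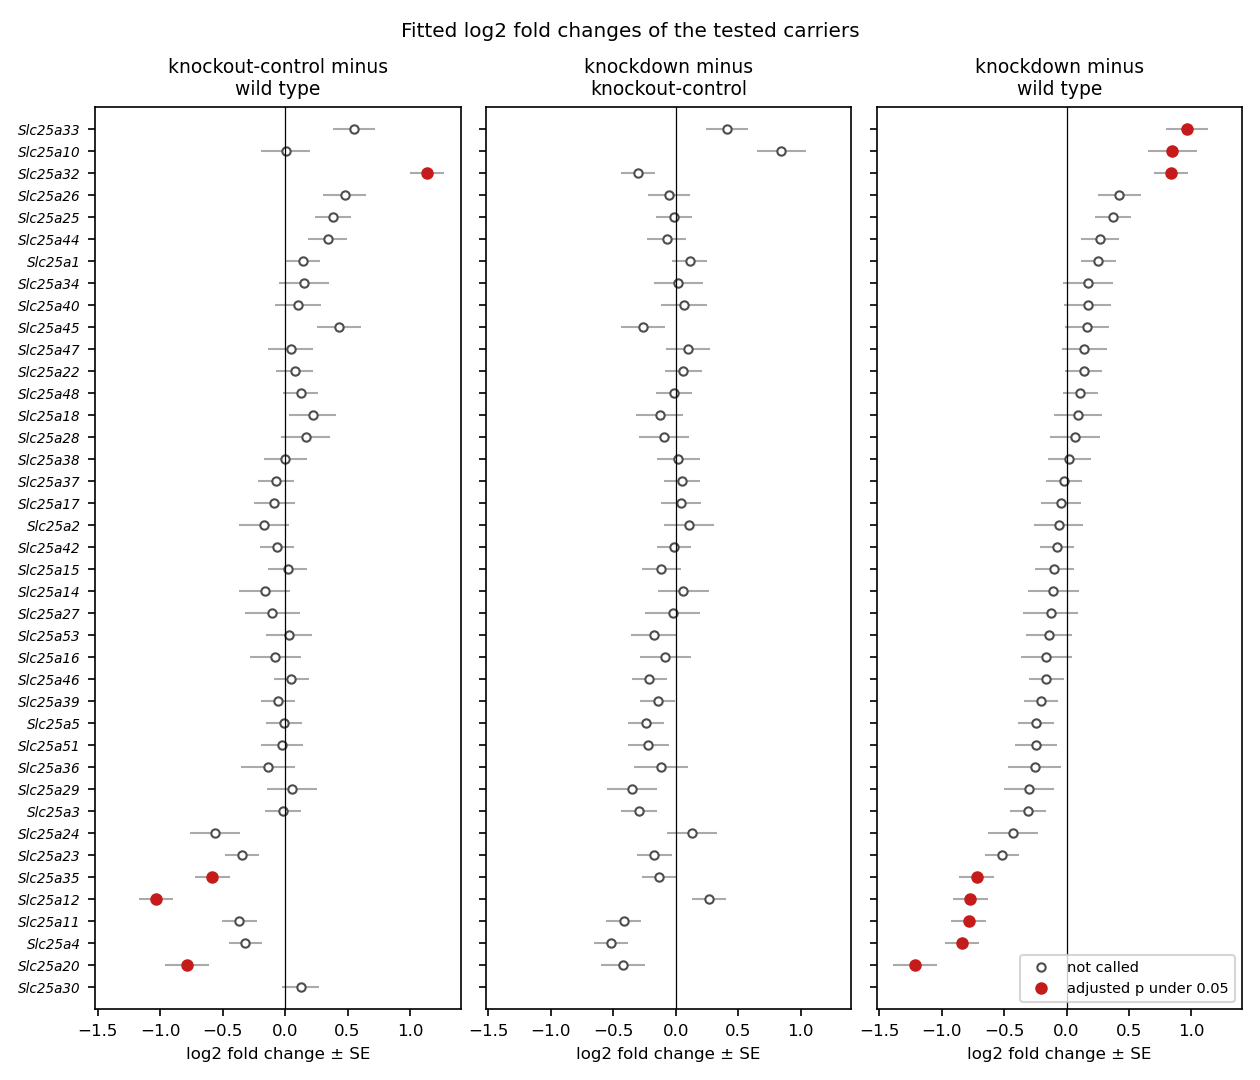
Fitted log2 fold change ± SE (limma, log2(intensity + 32)) of the 40 tested carriers in the 3 comparisons, ordered by knockdown minus wild type; filled red points have an adjusted p under 0.05. There are 4 red points in the left panel, 0 in the middle and 8 in the right. Slc25a30 has a value in the left panel only.

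Where a carrier had several probe sets above the filter, they did not always point the same way. All probe sets shared a sign in 11 of 17 such carriers between knockout-control and wild type, in 8 of 16 between knockdown and knockout-control and in 10 of 16 between knockdown and wild type. Slc25a4, Slc25a5, Slc25a20, Slc25a32 and Slc25a46 shared a sign in each of the 3. The related mitochondrial transporters outside the family had calls in both directions, but most of them stood lower in knockdown cells. Between knockdown and wild type, 8 stood below 0 and 2 above (all genes 7274 and 6370 of 13644), with a median of -0.26 (all genes -0.03). Between knockdown and knockout-control, 8 stood below 0 and 2 above (all genes 6968 and 6681 of 13649). The median there was -0.24 (all genes -0.01), and 0 were called. Of 10 tested, 1 rose and 0 fell between knockout-control and wild type, and 2 rose and 1 fell between knockdown and wild type, where Sfxn1, a serine carrier of the sideroflexin family, stood at 0.86 and 0.57 (limma adjusted p = 0.00964 and 0.0366, each lost without any 1 of the wild-type or knockout-control arrays).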

How the data were processed

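Total RNA labelled with biotin was measured on 6 single-colour oligonucleotide arrays, per the labels. The authors deposited linear intensities for 45037 probe sets. How they were summarised, scaled and background-corrected is not stated in the labels. Missing values were 5285 cells holding the word null and 870 empty ones. Gene names came from GEO's 2016 platform annotation (1 symbol for 34945, several for 932, none here for 9160), with symbols updated by Entrez identifier. With limma 3.58.1 in R 4.3.3, a single model was fitted to the 3 group means of log2(intensity + 32), with 3 residual and 5.45 prior degrees of freedom. Each adjusted p-value in the text is from such a limma model across all features. The model was tested on simulated data, and a missed call does not show that a gene did not change.

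With 2 arrays per group an exact permutation test cannot reach 0.05, and the number of arrays limits the precision. The carriers and gene lists were chosen with earlier results of these data known. Carriers given per array were those called, the 4 largest rises and falls of each comparison, the 5 brightest in wild type and a set list of 14, and others by range or where probe sets disagreed. Slc25a30 was added after its values were seen. Alternatives covered the pseudocount (16, 64), the filter (none, 60th percentile), the probe set per gene, normalization, moderation, the arrays in the fit and a replicate block.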

Additional observations from a re-analysis of the deposited data

How the results depend on the processing

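Between knockout-control and wild type the number of carriers called was 4 and became 2 without the filter, 2 with it at the 60th percentile and 2 with the replicate block, but 6 with the crossed replicate block, and it ranged from 1 to 5 with each array left out. Between knockdown and knockout-control it was 0 and became 1 with the second brightest probe set, 1 after quantile normalization, 1 with trend and robust moderation and 2 with the crossed replicate block, and ranged from 0 to 1 with each array left out. Between knockdown and wild type it was 8 and ranged from 1 to 10 with each array left out, the lowest without wild-type array 1 or 2. Of the carriers called, only Slc25a32 (knockout-control minus wild type) and Slc25a20 (knockdown minus wild type) kept the call in each of the 6 fits without an array. Leaving out an array lowers the residual degrees of freedom, and the lone array left is assumed to vary like the other groups.

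The median log2 fold change between knockdown and wild type moved to 0.0228 with the mean of probe sets, 0.0365 with the second brightest probe set and 0.00196 after quantile normalization, and ranged from -0.14 to 0.00241 with each array left out. The median of all genes under the first 3 settings was -0.03, -0.02 and 0.04. Between knockdown and knockout-control the carriers' median moved to 0.0077 with median scaling, where that of all genes moved to 0.07, and ranged from -0.15 to 0.0388 with each array left out, where that of all genes went from -0.09 to 0.07. Between knockout-control and wild type it ranged from -0.05 to 0.04 with each array left out. The only called value that reversed was that of Crat between knockdown and wild type with the second brightest probe set (-0.0733). The causes were not tested.

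With the replicate block the number of all genes called went from 826 to 410, from 114 to 22 and from 1365 to 735 in the 3 comparisons. Deviations of same-numbered arrays correlated across genes at 0.20 between wild type and knockout-control, -0.15 between wild type and knockdown and -0.50 between knockout-control and knockdown. With 1 such deviation per group, these values cannot settle whether equal numbers pair the samples. A pairing with the knockdown numbers crossed was not given by the labels. That crossed block, chosen after seeing the data, called 2037, 764 and 2821 genes and 6, 2 and 10 carriers in the 3 comparisons. Over all genes, the counts in the 3 comparisons were 364, 9 and 585 with no filter, 474, 13 and 778 with the mean of probe sets, and 1653, 381 and 2301 after quantile normalization.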
